A study of Rattus norvegicus with 8 samples.

Results

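Respiratory complex I (NADH:ubiquinone oxidoreductase) is the entry enzyme of the mitochondrial respiratory chain. Its matrix arm takes electrons from NADH through flavin and iron-sulfur clusters to ubiquinone, and its membrane arm pumps protons. A small core of subunits carries out catalysis, and many accessory subunits surround it and are needed for its assembly and stability. In cerebral cortex, neurons depend on this chain for the ATP that restores ion gradients after firing, and the genes described here are nuclear genes whose products act in mitochondria.

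The members were all probe sets with exactly 1 gene symbol in the platform's probe-to-gene table where that symbol starts with Ndufa, Ndufb, Ndufc, Ndufs or Ndufv followed by a digit, or is Ndufab1. Assembly factors (Ndufaf) were left out. This gave 39 probe sets of 36 genes, out of 31042 probe sets that were not controls and 14217 named genes. Of these 36 genes, 34 encode subunits of complex I. The other two, Ndufa4 and Ndufa4l2, carry the name by history: the Ndufa4 product is found with cytochrome c oxidase, and Ndufa4l2 is its paralog. Both were kept as members by the rule, and they are described apart from the subunits.

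The tissue was frontal cortex. The animals were male rats of the outbred Sprague-Dawley stock, of about 200 g at the start, and their age is not given in the sources used here. For 21 days they were injected intraperitoneally with saline or with the antipsychotic olanzapine (2 mg/kg/day), an antagonist of dopamine and serotonin receptors. Each group held 20 animals, and 4 of each were put on arrays of short oligonucleotide probe sets. The arrays are named here by group and animal number: saline 14, 15, 17 and 19, and olanzapine 9, 14, 18 and 19. The tissue was dissected whole, so fewer cells of a type and less RNA per cell cannot be told apart.

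Values are the authors' deposited linear intensities, scaled to 1 trimmed mean per array. Differences are olanzapine minus saline on the scale log2(intensity + 63.4), tested by limma with Benjamini-Hochberg adjustment over all 18625 probe sets left by a filter on dim ones. Median intensities were 159 to 191 per array. Saline 14, 15 and 17 had a 98th percentile of 6127 to 6204, against 5567 in saline 19 and 5451 to 5692 in olanzapine. The filter kept 8 of 9 neuron markers and 8 of 8 astrocyte markers on the array, and no deposited value was 0.

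The promoter windows of these genes are shown first, because some of the genes share letters there that the choice by name did not use. RefSeq promoter windows of build GRCr8, from 250 bases before to 50 after each gene's start, were matched for 34 of the 36 genes. The letters AAGATGGC, the core of the motif of the transcription factor YY1, were found in the windows of 9 of 34 genes (26.5%), against 4.08% of 19005 protein-coding genes. In all 9 the letters lay on the gene's own strand and began no earlier than the base before the start. Such a placement was found in 1.71% of protein-coding genes, and in 41.9% of those protein-coding genes that held the letters. Of the 9 genes, 8 encode complex I subunits and the other is Ndufa4l2. The letters contain ATG, and whether this is the start codon of these genes was not analysed here. Protein-coding genes were not matched to the members for the distance from gene start to start codon. The stretches that hold the letters in 6 of these genes are given from 5′ to 3′ on the gene's strand, with the motif in capitals, because they show how close to the start the letters lie.
Ndufs7: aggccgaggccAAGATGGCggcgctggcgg
Ndufs4: ttgcccacaggAAGATGGCggcggtctcaa
Ndufs6: gggtcgtcggcAAGATGGCggcggcgctga
Ndufa6: gcttccttagcAAGATGGCggccgcggcca
Ndufa9: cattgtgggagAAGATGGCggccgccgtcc
Ndufa3: tgtccaagaccAAGATGGCtgctagtaagt
In GRCr8 the Ndufs7 stretch is chr7:10110476-10110505 on the minus strand, and its motif begins 5 bases after the start. The Ndufs4 stretch is chr2:47794892-47794921 (minus strand, 5 bases after) and that of Ndufs6 is chr1:31797412-31797441 (plus strand, 24 bases after). The Ndufa6 stretch is chr7:115750284-115750313 (minus strand, 16 bases after), that of Ndufa9 is chr4:161374142-161374171 (minus strand, 11 bases after) and that of Ndufa3 is chr1:74515524-74515553 (minus strand, 17 bases after).

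The core of the motif of NRF-1, a transcription factor known for binding promoters of respiratory genes, was searched as GCGCATGC on both strands. It was found in 2 of 34 windows (5.88%), against 3.32% of protein-coding genes, those of Ndufa11 and Ndufa6, whose intensities differed by -0.28 and 0.018. The Ndufa11 window held it in 4 overlapping matches over 16 bases, the first of which begins 97 bases before the start. The stretches of both genes are shown to compare the single match with the run of overlapping ones, and matches on either strand are in capitals.
Ndufa11: gcgctgtGCGCATGCGCATGCGCacaggcc
Ndufa6: tccgcggtagaGCATGCGCatggcagagcc
The Ndufa11 stretch is chr9:1637510-1637539 on the plus strand, and that of Ndufa6 is chr7:115750403-115750432 on the minus strand, with a match that begins 104 bases before the start. CCGGAAG, a core of the ETS factor motif, was found in 7 of 34 windows (20.6%, against 11.6%), and CACGTG, the E-box of basic helix-loop-helix factors, in 2 of 34 (5.88%, against 7.69%). No arrays measured binding at these sites, and a match is a description of the letters alone.

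Across the members, intensities were mostly a little lower in olanzapine, and no member passed the adjusted test. Of the 39 probe sets, 37 passed the filter, standing for 34 genes, and 24 of these 37 (64.9%) were lower in olanzapine, against 44% of all 18625 tested. Their median log2 difference was -0.084, against 0.027 over all tested, and single members ran from -0.32 to 0.22. By limma 0 of 37 passed an adjusted p of 0.05, where 0% of all tested passed. The smallest adjusted p among members was 0.487. At an unadjusted p under 0.05 there were 3 members, all lower, where 3.73% of all tested were lower and 4.59% higher at that level. The 95% interval of the difference lay within 1.5-fold in either direction for 34 of 37. The exceptions were Ndufs7, Ndufb10 and 1 of the 2 probe sets of Ndufv3. Over the 36 probe sets of complex I subunits alone, 23 were lower, with a median of -0.083.

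Brightness moved with these differences, and the values are given for the same range of it. Between the quartiles of their brightness the members had mean log2 values of 9.85 to 11.21. Of the 19 members there, 12 were lower (63.2%), with a median of -0.084, against 48.1% and a median of 0.0065 over the 3151 tested probe sets in that range. Above it, 7 of 9 members were lower with a median of -0.084, against 74% and -0.090 over 2113 probe sets. Below it, 5 of 9 were lower with a median of -0.0031, against a median of 0.060 over 13361. After quantile normalization, which makes the distribution of values the same on each array, 25 of 37 members were lower with a median of -0.062, against 0.0047 over all tested. After cyclic loess 25 were lower too, with a median of -0.048 against -0.00048. When each array was centred on its median, 28 of 37 were lower, with a median of -0.14 against -0.025, and the share of all tested probe sets that were lower went from 44.0% to 55.0%.

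**Figure D1:**
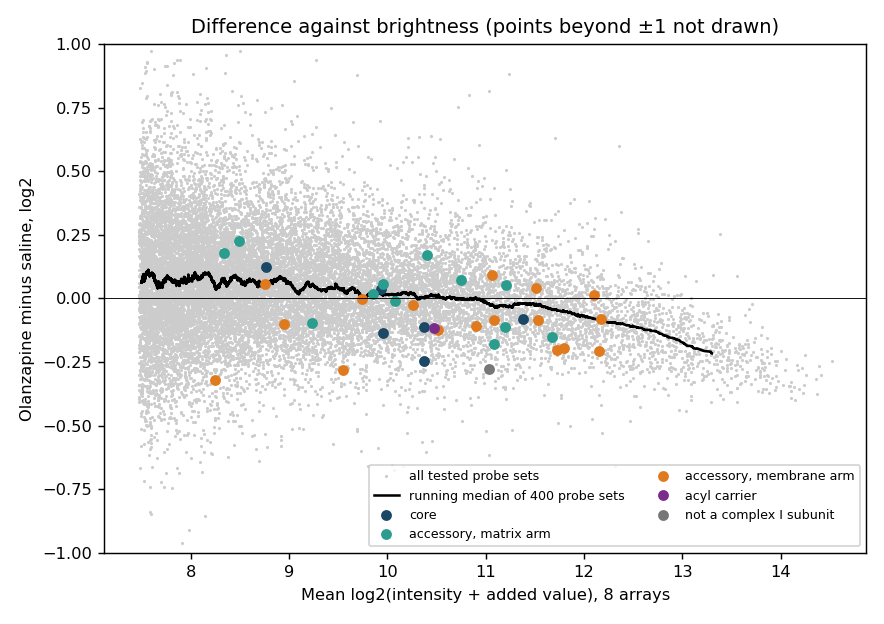
The difference of olanzapine minus saline (log2 scale, vertical axis) is plotted against the mean log2 value over 8 arrays (horizontal axis) for the tested probe sets in grey, without those beyond the vertical axis, and for the 37 tested members in colour by role. The black running median of all probe sets lies above 0 at the dim end and below 0 at the bright end. Of the 19 members between log2 values of 9.85 and 11.21, 12 lie below 0.

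Saline 15 stood apart from the other arrays in these members. Saline 15 was the highest of the 8 arrays for 16 of the 37 members, whereas it was the highest for 16.7% of all tested probe sets. The members' median deviation from their own mean over the 8 arrays was 0.11 in saline 15, and in the other saline arrays it was -0.0061 (saline 14), 0.0054 (saline 17) and -0.020 (saline 19). In olanzapine it was -0.043 (olanzapine 9), -0.026 (olanzapine 14), -0.00059 (olanzapine 18) and -0.077 (olanzapine 19). The median of saline 15 was above those of the other saline arrays, which lay within or just above the range of the olanzapine arrays. Without saline 15 the median difference of the members was -0.024 in place of -0.084, and 22 of 37 were lower. With any other single array left out it ran from -0.11 to -0.050.

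Saline 15 was not high for all members. Its value exceeded the mean of the other saline arrays most in Ndufs7, by 0.75 on the log2 scale, in Ndufs8 by 0.58 and in Ndufb10 by 0.52. For 7 probe sets it lay below the mean of the others, with values of -0.74 for Ndufv3 (probe set 1368567_at), -0.62 for Ndufa7 (1395045_at) and -0.41 for Ndufs1. RNA quality was read from the control probe sets of Gapdh: the ratio of the 3′ to the 5′ probe set was highest in saline 15, at 5.99, and was lowest in olanzapine 19, at 3.62. These are also the arrays with the highest and the lowest median deviation of the members. In the other arrays the ratio was 4.52 to 5.80. Saline 15 also had the lowest median correlation with the other arrays, at 0.949, where the others had 0.962 to 0.968. The part of RNA quality in the members' difference was not tested.

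**Figure D2:**
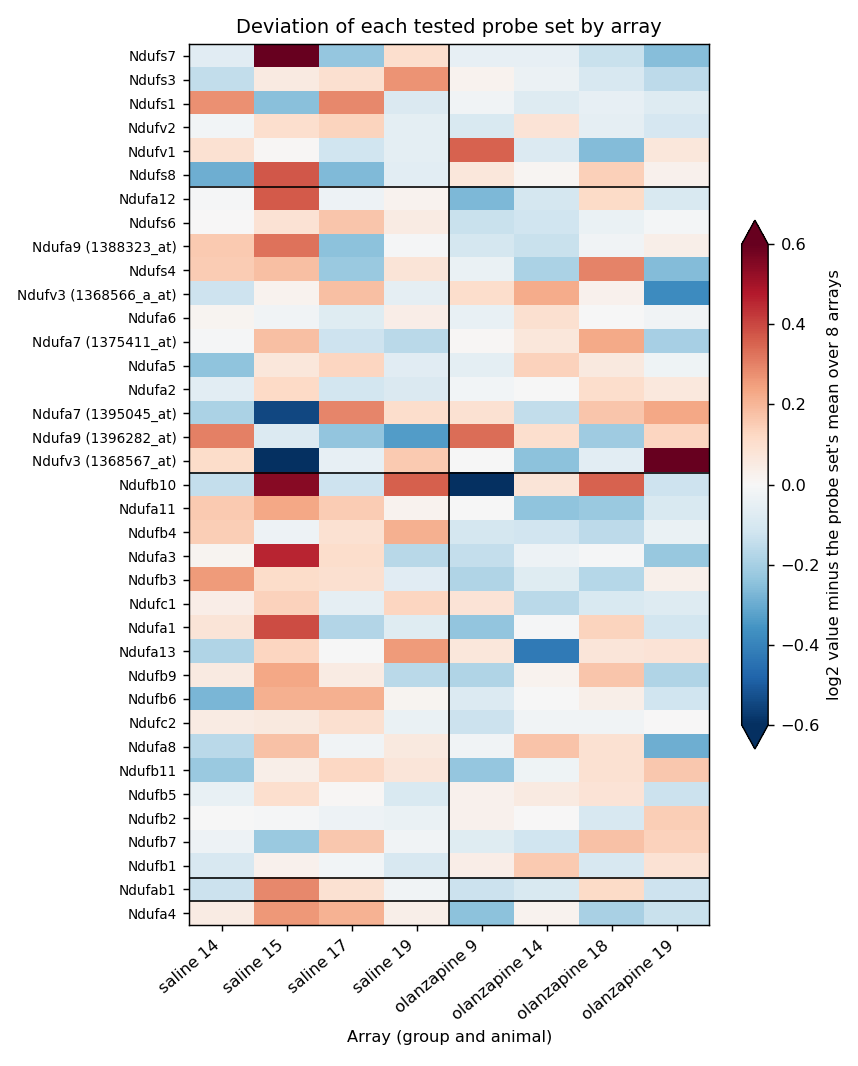
Each row is a tested probe set, ordered by role from the core subunits at the top, and each column is an array. The colour gives the log2 value minus the probe set's mean over the 8 arrays, red for higher and blue for lower, and the column of saline 15 is the reddest, with 16 of 37 highest values.

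The core subunits among the members come first, and most of them hold the flavin or iron-sulfur clusters. The core members were 6 genes with 1 probe set each, all tested. Of the 6, 4 were lower in olanzapine, with a median of -0.097, 0 passed the adjusted test and 0 passed at an unadjusted p under 0.05. The median was -0.043 without saline 17 and -0.058 without saline 15.

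Ndufs7 encodes a core subunit that carries the last iron-sulfur cluster before ubiquinone. It had intensities of 1200, 2071, 1065 and 1358 in saline 14, 15, 17 and 19, and of 1216, 1216, 1145 and 1045 in olanzapine 9, 14, 18 and 19. The groups overlapped, with saline 15 far above all other arrays and the olanzapine arrays close together. The difference was -0.25 (SE 0.16, limma adjusted p 0.751), and it was -0.057 without saline 15.

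Ndufs8, whose product holds iron-sulfur clusters beside that of Ndufs7, had intensities of 292, 501, 298 and 354 in saline and of 392, 375, 416 and 380 in olanzapine. Saline 15 was again the highest, and here the other saline arrays lay below every olanzapine array. The difference was 0.12 (SE 0.16) and 0.27 without saline 15.

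Ndufs1, the largest core subunit with several iron-sulfur clusters, had intensities of 1537, 1046, 1552 and 1180 in saline and of 1237, 1189, 1213 and 1189 in olanzapine. The saline values split into a high pair and a low pair, and the olanzapine values lay between them. The difference was -0.11 (SE 0.13), and it was -0.036 without saline 17 and -0.22 without saline 15. Ndufs3, a core subunit of the quinone-binding part that holds no cluster, was at 831, 966, 997 and 1132 in saline and at 942, 904, 864 and 825 in olanzapine, with overlapping groups and a difference of -0.14 (SE 0.12) that was -0.068 without saline 19 and -0.21 without saline 14.

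Ndufv1 and Ndufv2 sit at the tip of the matrix arm, where Ndufv1 binds NADH and the flavin and Ndufv2 holds an iron-sulfur cluster. For Ndufv1 the intensity was 904 ± 60.7 in saline (mean ± SD, n = 4) and 941 ± 184 in olanzapine (n = 4), and olanzapine 9, at 1186, was above all other arrays. Its difference was 0.039 (SE 0.13), and -0.072 without olanzapine 9. For Ndufv2 the intensity was 2683 ± 174 in saline and 2533 ± 155 in olanzapine, a difference of -0.081 (SE 0.090). The groups of both genes overlapped.

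**Figure D3:**
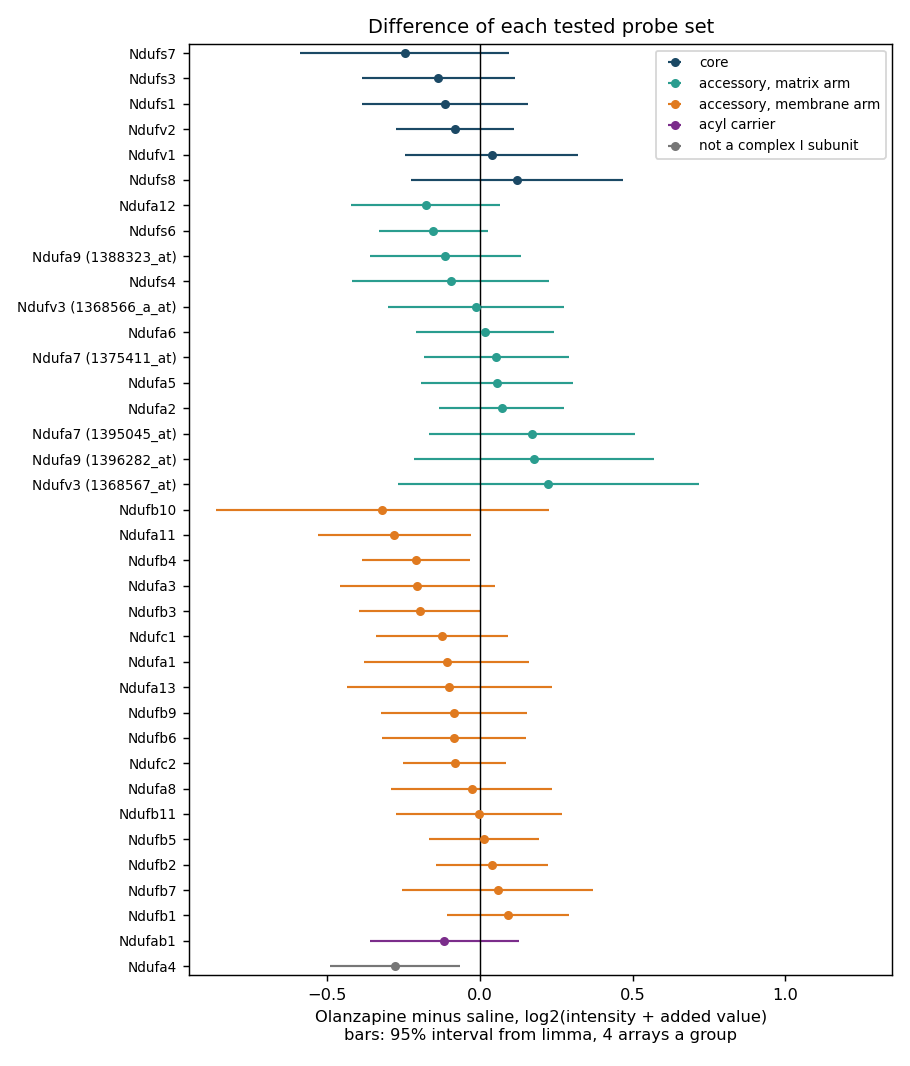
Points give the log2 difference of olanzapine minus saline for each of the 37 tested probe sets and bars its 95% interval from limma (4 arrays in each group), grouped and coloured by role. The intervals of Ndufa11, Ndufb4 and Ndufa4 lie below 0 before any adjustment, and 34 of the 37 intervals lie within 1.5-fold.

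Accessory subunits of the matrix arm were about evenly divided. All 9 genes listed for this arm had a member, with 12 probe sets, all tested. Of these 12, 7 had higher and 5 lower values in olanzapine. The median was 0.036, which turned to -0.016 when arrays were centred on their medians, and 0 passed the adjusted test.

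Ndufs6 encodes a zinc-binding subunit of the NADH-oxidizing part that is needed late in assembly. Its intensities were 3213, 3419, 3608 and 3330 in saline 14, 15, 17 and 19, and 2925, 2954, 3122 and 3183 in olanzapine 9, 14, 18 and 19. All saline arrays were above all olanzapine arrays, though saline 14 and olanzapine 19 lay close together. The difference was -0.15 (SE 0.084, limma adjusted p 0.686). The groups overlapped after quantile normalization, cyclic loess and median centring, and the difference was -0.091 after cyclic loess. Ndufs6 is bright, and among the 2113 tested probe sets above the members' upper quartile of brightness, 10.7% had all olanzapine values below all saline values.

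Ndufa12, an accessory subunit that takes the place of the assembly factor Ndufaf2 in the finished enzyme, was at 2096, 2739, 2065 and 2143 in saline and at 1735, 1952, 2289 and 1974 in olanzapine. Its groups overlapped through olanzapine 18. The difference was -0.18 (SE 0.11), and it was -0.084 without saline 15. Ndufs4, the loss of which causes a mitochondrial encephalopathy in mice and in people, was at 564 ± 76.0 in saline (mean ± SD of 4 arrays) and at 528 ± 107 in olanzapine, a difference of -0.095 (SE 0.15).

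The remaining members of this arm with 1 probe set, Ndufa2, Ndufa5 and Ndufa6, had differences of 0.072, 0.058 and 0.018. Ndufa6 varied little, at 854 ± 32.0 in saline and 866 ± 40.7 in olanzapine. Without saline 15 every olanzapine array lay above every saline array for Ndufa2 and for Ndufs8, which are 2 of 37 members, where 4.41% of all tested probe sets were higher without overlap.

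Each of 3 accessory genes of this arm had 2 probe sets, and in 2 of them the probe sets differed in sign. Ndufv3, a subunit beside Ndufv1 and Ndufv2, was at 928, 1033, 1163 and 979 in saline and at 1099, 1199, 1037 and 769 in olanzapine by probe set 1368566_a_at. By probe set 1368567_at it was at 325, 163, 285 and 339 in saline and at 296, 240, 282 and 546 in olanzapine. Olanzapine 19 was the lowest array by the first and the highest by the second. The differences were -0.012 (SE 0.13) and 0.22 (SE 0.23), and the second was 0.0088 without olanzapine 19.

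Ndufa9, a subunit that binds NADPH at the junction with the membrane arm, was at 2558, 2883, 1918 and 2273 in saline and at 2124, 2076, 2252 and 2345 in olanzapine by probe set 1388323_at. By the dimmer 1396282_at it was at 337, 243, 212 and 194 in saline and at 347, 285, 217 and 292 in olanzapine. The differences were -0.11 (SE 0.12) and 0.18 (SE 0.18), with overlapping groups in both. The first was -0.024 without saline 15 and -0.21 without saline 17, and the second was 0.094 without olanzapine 9 and 0.31 without saline 14. Ndufa7 had differences of 0.054 (SE 0.11) by 1375411_at and 0.17 (SE 0.16) by 1395045_at, and saline 15 was the highest saline array by the first, at 2621, and the lowest by the second, at 860. Without saline 15 the second difference was 0.018, and without saline 17 it was 0.30. Which transcript forms each probe set detects was not analysed here.

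**Figure D4:**
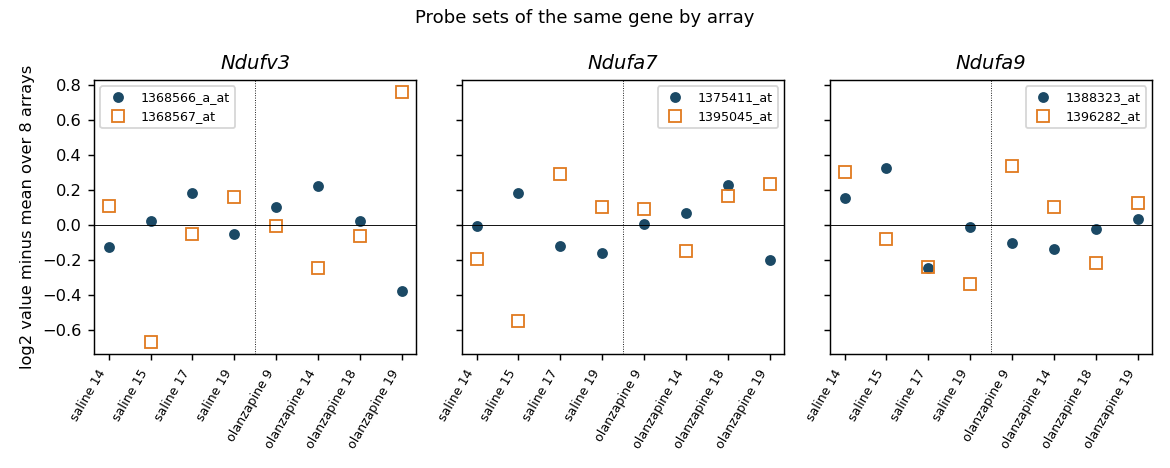
The log2 value minus its mean over the 8 arrays (vertical axis) is shown for both probe sets of Ndufv3, Ndufa7 and Ndufa9 on each array, with a dotted line between the groups. The probe sets of Ndufv3 stand farthest apart in olanzapine 19, at intensities of 769 and 546, and in saline 15, at 1033 and 163.

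Among accessory subunits of the membrane arm most values were lower in olanzapine. Of 20 genes listed, 18 had a member and 17 were tested, and of these 13 had lower and 4 higher values in olanzapine. The median was -0.084. Without saline 15 that median was -0.026. None passed the adjusted test, and 2 were lower at an unadjusted p under 0.05. The mean brightness of this group was greater, with a median log2 value of 11.06 against 10.24 for the matrix arm group, and the difference between these groups was not tested. Of all tested probe sets, 74% were lower above the members' upper quartile of brightness, 48.1% in their middle range and 38.3% below it. The median of 11.06 lies in that middle range, near its upper border of 11.21. Single probe sets of the membrane arm group ran from 8.25 to 12.17 and fell in each of these ranges. Ndufa10 and Ndufs5 were not analysed here.

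Ndufa11, a subunit that lies against the membrane arm where complex I meets complex III in supercomplexes, had intensities of 773, 819, 769 and 697 in saline 14, 15, 17 and 19. In olanzapine 9, 14, 18 and 19 they were 685, 572, 579 and 640. All saline arrays lay above all olanzapine arrays, with saline 19 and olanzapine 9 close together. The difference was -0.28 (SE 0.12, unadjusted p 0.0308, limma adjusted p 0.539), and the groups also did not overlap after quantile normalization, cyclic loess or median centring. With 1 array left out it ran from -0.33 to -0.25.

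Ndufb4, an accessory subunit that also takes part in contacts between the complexes, was at 4983, 4401, 4797 and 5218 in saline and at 4183, 4145, 4033 and 4372 in olanzapine. The groups did not overlap, and the gap between saline 15 and olanzapine 19 was small. The difference was -0.21 (SE 0.083, unadjusted p 0.0236, limma adjusted p 0.524). It is among the bright members, and its groups overlapped after quantile normalization, with a difference of -0.13 (unadjusted p 0.126 by limma), and after cyclic loess, with -0.12 (unadjusted p 0.180).

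Ndufb10 had the largest negative difference of all members, -0.32 (SE 0.26), and the widest interval. It was at 212, 382, 216 and 328 in saline and at 94.7, 258, 326 and 217 in olanzapine. The value of olanzapine 9 was the lowest, and without that array the difference was -0.057, while without olanzapine 18 it was -0.49. Ndufa3 was at 3610 ± 693 in saline (mean ± SD of 4 arrays) and at 3091 ± 223 in olanzapine, a difference of -0.20 (SE 0.12), and Ndufb3 was at 3764 ± 353 and 3272 ± 231, a difference of -0.20 (SE 0.094). The groups of both overlapped.

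At the other end of this group, Ndufb1 differed by 0.093 (SE 0.093), with 1933, 2110, 2046 and 1937 in saline and 2133, 2319, 1933 and 2202 in olanzapine. Ndufb7 differed by 0.058 (SE 0.15), with 358, 306, 419 and 361 in saline and 346, 334, 423 and 410 in olanzapine. Of the rest, Ndufc1, Ndufa1, Ndufa13, which is also known as the cell death regulator GRIM-19, Ndufb9, Ndufb6 and Ndufc2 ran from -0.13 to -0.083. Ndufa8, Ndufb11, Ndufb5 and Ndufb2 ran from -0.026 to 0.040. For the last of these, Ndufb2, the saline arrays agreed closely, at 2809 ± 35.7, and olanzapine was at 2894 ± 205.

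Ndufb8 was too dim to pass the filter, at 7 to 60 in saline and 18 to 95 in olanzapine, and its level cannot be read from this probe set. Ndufab1, the mitochondrial acyl carrier protein, which occurs in both arms, was at 1235, 1676, 1452 and 1339 in saline and at 1237, 1272, 1476 and 1239 in olanzapine. Its groups overlapped, with a difference of -0.12 (SE 0.11), and of -0.038 without saline 15.

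Ndufa4, the gene of a subunit found with cytochrome c oxidase, was at 2109, 2458, 2367 and 2093 in saline and at 1710, 2071, 1772 and 1850 in olanzapine. The groups did not overlap, though saline 19 and olanzapine 14 lay close together. The difference was -0.28 (SE 0.099, unadjusted p 0.0136, limma adjusted p 0.487), the smallest p of the members, and with 1 array left out it ran from -0.33 to -0.24. Its groups overlapped after cyclic loess and after median centring. Its paralog Ndufa4l2, a gene known to be induced in hypoxia, did not pass the filter. It was at 76.7, 122, 107 and 73.3 in saline and at 159, 100.5, 136 and 157 in olanzapine, with overlapping groups, and with no filter its difference was 0.35 (SE 0.22, limma adjusted p 0.816).

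In all, 4 of 37 tested members had groups that did not overlap, and all 4, Ndufs6, Ndufa11, Ndufb4 and Ndufa4, were lower in olanzapine. Over all tested probe sets 2.07% did not overlap and were lower, and 2.4% did not overlap and were higher. Of the 4, Ndufs6 and Ndufb4 lie where 10.7% of all tested probe sets were lower without overlap, and Ndufa4 lies in the members' middle range of brightness, where 1.65% were. Ndufa11 lies below that range, where 107 of 13361 tested probe sets were lower without overlap and 348 were higher without overlap. After quantile normalization 2 remained without overlap, Ndufa11 and Ndufa4, where 1.76% of all tested were lower without overlap, and after cyclic loess 1, Ndufa11, where 1.92% were. After median centring there were 3, Ndufa11, Ndufb4 and Ndufc1, where 1.70% were. With 1 array left out more probe sets of the whole array were free of overlap. Without saline 19 there were 7, all lower, where 5.14% of all tested were lower and 6.39% higher without overlap. Without olanzapine 18 there were 7, of which 5 were lower and 2 higher, where the shares were 3.45% and 4.14%. Without saline 19, 107 probe sets of the whole array passed the adjusted test and 0 of them were members.

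**Figure D5:**
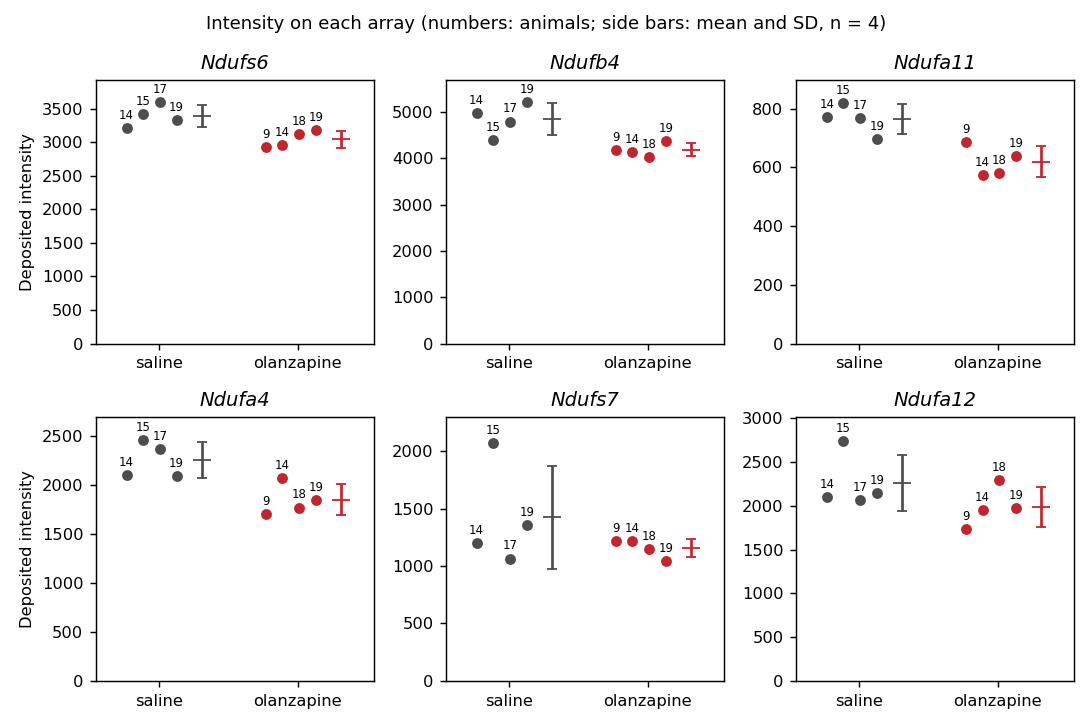
Deposited intensity (vertical axis, from 0) is shown for each array, labelled by animal number, with the mean and SD of each group of 4 beside the points. The upper row and Ndufa4 show the 4 members without overlap, and Ndufs7 and Ndufa12 show saline 15 apart from the other arrays, at 2071 and 2739.

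Other genes of the pathway were counted for comparison, with 1 probe set per gene, the brightest. Of 15 assembly factors of complex I on the array, 14 were tested: 8 lower, 6 higher, a median of -0.0096 and 0 past the adjusted test. They included Ndufaf5 at -0.11 (SE 0.11), Nubpl, which delivers iron-sulfur clusters to the complex, at -0.13 (SE 0.14), and Ecsit at 0.32 (SE 0.21). Of 34 subunit genes of complexes II to V, all tested, 26 had lower and 8 higher values. Their median was -0.091, and 0 passed. These genes had a median log2 brightness of 11.62. In that range 74% of all tested probe sets were lower, with a median of -0.090, against 76.5% of these genes. The mean of these 34 genes per array was highest in saline 15 too, at 11.63. It was 11.36 to 11.46 in olanzapine arrays and 11.41 to 11.46 in the remaining saline arrays. Without saline 15 their median difference was -0.039. After quantile normalization their median was -0.029, where that of the complex I members was -0.062.

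Genes that control respiratory genes had a median of -0.0097 over 10 tested, 5 lower and 5 higher, with 0 past the adjusted test. Ppargc1a, a coactivator of mitochondrial biogenesis, differed by -0.15 (SE 0.11), Gabpa, an ETS factor of respiratory promoters, by 0.14 (SE 0.17), Yy1 by -0.045 (SE 0.085) and the mitochondrial RNA polymerase gene Polrmt by 0.29 (SE 0.15). Of 20 tested mitochondrial genes outside the respiratory chain, 13 had lower and 7 higher values. The median was -0.072, and 0 passed. The lowest difference was that of Mfn2, -0.66 (SE 0.15), and Vdac1, the main outer membrane channel, differed by -0.36 (SE 0.089). The highest was that of Cs, the citrate synthase gene often used as a measure of mitochondrial content, at 0.32 (SE 0.18). Mfn2 and Vdac1 had mean log2 values of 12.32 and 14.10, in the range where 74% of all tested probe sets were lower. Cs had one of 10.97, in the range where 48.1% were.

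Of the cell type marker lists, those of astrocytes and meninges had mean values per array that did not overlap between the groups, and no marker passed the adjusted test. Astrocyte markers were lower in olanzapine in 8 of 8 tested, and their mean log2 value per array was 11.69 to 11.78 in saline and 11.35 to 11.66 in olanzapine. Neuron markers were lower in 5 of 8, at 11.73 to 12.05 in saline and 11.74 to 11.89 in olanzapine, and saline 15 was the highest array. Markers of the meninges were higher in 8 of 8, at 8.06 to 8.24 in saline and 8.44 to 9.16 in olanzapine. The tested astrocyte markers had a median log2 brightness of 12.63, in the range where 74% of all tested probe sets were lower. Those of the meninges had one of 8.44, in the range where 8244 of 13361 were higher. The means of the oligodendrocyte, microglia, endothelium, choroid plexus, red blood cell and striatal medium spiny neuron lists overlapped between the groups. Spike-in control RNAs were at a mean log2 intensity of 12.85 to 13.33 in saline and 12.31 to 12.94 in olanzapine (9 probe sets). The part of cell makeup and of labelling in the members' difference was not tested.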

How the data were processed

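The data are 8 arrays, 4 saline and 4 olanzapine. The authors' deposited values are probe set intensities on a linear scale, all above 0, with a mean of 500.0 on each array after trimming 2% at each end. The sources used here do not give the software or background correction. Probe sets were named from the platform annotation (20826 with 1 symbol, 436 with several, 9780 with none), with symbols updated through the RefSeq table of GRCr8, which held 36 of 36 member genes.

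The scale was log2(intensity + 63.4), where 63.4 is the 25th percentile over all arrays. This addition understates changes of dim genes. Probe sets at or below the 40th percentile of mean log2 value were removed. Groups were compared with limma 3.58.1 (R 4.3.3; lmFit, eBayes with trend, two-sided, no covariates), and the model was tested on simulated data. The members and lists were chosen with earlier results of these data known. Full values were given for the most negative and most positive pair of probe sets in each role, core subunits, members without overlap between groups, Ndufab1, Ndufa4, Ndufa4l2 and genes with several tested probe sets. Others were named after their values were seen. Alternatives were the added value, the filter, normalization, array weights, the trend, a block and leaving out each array. Leaving out Ndufa4 and Ndufa4l2, and 1 probe set per gene, were chosen after seeing the data.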

Additional observations from a re-analysis of the deposited data

Results flagged for a closer look

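In 42 groups of 4 values, those of each fully described probe set in each group, 2 had a single array apart from the others by Dixon's criterion at the 95% level, and chance gives about 1 in 20. Ndufa12 was at 2739 in saline 15, where the other saline arrays had 2065 to 2143. Ndufab1 was at 1476 in olanzapine 18, where the other olanzapine arrays had 1237 to 1272.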

How the results depend on the processing

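No member passed the adjusted test under any alternative run, and the members' median difference stayed below 0 in each. It was -0.14 after median centring and -0.023 with the animal number as a replicate block, and with 1 array left out it ran from -0.11 to -0.024. Members lower without overlap numbered 2 after quantile normalization, 1 after cyclic loess and 3 after median centring. With 1 array left out they numbered 4 to 7. Of all probe sets 1.76%, 1.92% and 1.70% were lower without overlap in the first 3, and 3.07% to 5.14% with 1 array left out. Members higher without overlap numbered 2 without saline 15, where 4.41% of all tested were, and 2 without olanzapine 18, where 4.14% were. Members lower in olanzapine numbered 21 to 28 over the alternatives. With 1 probe set per gene, 24 of 34 were lower with a median of -0.090. The 60th percentile filter removed Ndufb10. Of all probe sets 6 passed with the block, and 0 to 107 with 1 array left out. The numbers 14 and 19 occur in both groups but belong to different animals. Deviations of same-numbered arrays from their group means correlated at 0.075 and 0.11, against -0.023 and -0.13 for arrays of different numbers. With 2 such pairs of different animals, no pairing was assumed. The block rests on the 4 arrays that share a number, and with it Ndufa4 was -0.099 and the median of membrane arm accessory subunits -0.023. Some differences changed sign: Ndufb7 was -0.00029 after cyclic loess, and Ndufv1 was -0.013 after median centring and -0.023 with the replicate block. With that block Ndufv2 was 0.029, where it was -0.081 without it, and Ndufv3 (1368566_a_at) 0.012, and the latter was 0.0044 with array weights. With 1 array left out Ndufa7 (1375411_at) ran from -0.014 to 0.13, Ndufb7 from -0.0066 to 0.12, Ndufv1 from -0.072 to 0.13 and Ndufv3 (1368566_a_at) from -0.089 to 0.11. The cause was not tested. The number of arrays, 4 a group, limits the precision of each difference, and dim probe sets are the least certain.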
